A study of Mus musculus with 40 samples.

Results

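The miRNAs described here were the mature products of the miR-219a and miR-338 genes, the miRNAs most closely tied to oligodendrocytes, measured in the hippocampal CA1 region of mice. The 4 members, mmu-miR-219a-5p, mmu-miR-219a-2-3p, mmu-miR-338-3p and mmu-miR-338-5p, were taken by name from the 1978 mature mouse miRNAs in the deposited counts, and where a mature miRNA was listed under several precursors the precursor with the highest total was kept. Small RNA was sequenced from 40 mice on a C57Bl/6J background. The CamKIIδC TG mice overexpress the δC isoform of calcium/calmodulin-dependent protein kinase II and are a model of heart failure, and their wild-type littermates were the controls. The promoter that drives the transgene was not given in the sources used here. There were 9 TG mice and 5 wild-type control mice at 3 months of age, and 11 TG mice and 15 wild-type control mice at 6 months. For its own small RNA comparisons the paper states fewer TG mice at 3 months and more at 6 months. Mice of both sexes were used, and the sex of each mouse was not given in the sources used here. For 3-month wild-type control mice 1 and 2 the sample title gave wild type and the genotype field gave TG. The title was followed, and log2FC values without these mice are given where the call or direction changed or the value moved by over 1.5 times.

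Oligodendrocytes are the glial cells that wrap axons of the central nervous system in myelin. A miRNA is cut from a hairpin precursor whose arms each give a mature strand, named 5p and 3p, and the strand loaded into an Argonaute protein represses mRNAs that pair with its seed, bases 2 to 8. miR-219 and miR-338 rise when oligodendrocyte precursors stop dividing and differentiate, and they repress transcripts that keep the precursor state, among them those of the growth factor receptor PDGFRα and the transcription factors Sox6 and Hes5.

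The mature sequences are shown because the seed sets which mRNAs each strand can pair with. The strand sequence also bears on whether its reads name 1 gene. RefSeq (GRCm38.p6) held a mature sequence for 3 of the 4 members, and mmu-miR-219a-2-3p is named only. Capitals mark the seed, and sequences run 5′ to 3′.
mmu-miR-219a-5p: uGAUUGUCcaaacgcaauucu
mmu-miR-338-3p: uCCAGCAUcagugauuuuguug
mmu-miR-338-5p: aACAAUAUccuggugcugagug
mmu-miR-219a-1-3p (other arm of the second miR-219a gene): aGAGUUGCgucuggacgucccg
The seeds of the 3 members differed from each other, and none of them was shared with any other of the 1679 mature mouse miRNAs in that table. So the 3 strands carried 3 separate seeds, even where 2 of them came from 1 hairpin.

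The Mir338 hairpin (GRCm38, chr11:120014765-120014862, minus strand, ENSMUSG00000065600) lay in an intron of Aatk, which encodes the apoptosis-associated tyrosine kinase and is read from the same strand. Its 2 arms are marked in capitals, miR-338-5p first.
Mir338: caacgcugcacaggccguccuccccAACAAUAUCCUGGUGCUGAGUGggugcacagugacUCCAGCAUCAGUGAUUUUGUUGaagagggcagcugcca
The Mir219a-2 hairpin (chr2:29845631-29845727, minus strand, ENSMUSG00000065485) overlapped no protein-coding gene and lay 629 bp from Urm1, on the opposite strand. The Mir219a-1 hairpin (chr17:34024983-34025092, minus strand, ENSMUSG00000065555) overlapped an exon of the long non-coding RNA gene Gm26940 on the same strand, and lay 303 bp from Ring1. miR-219a-5p has the same sequence in both miR-219a hairpins, so that sequence alone does not say which gene a read came from. In contrast, miR-219a-1-3p and miR-219a-2-3p each name 1 gene. In the deposited counts miR-219a-5p was listed with 2711 reads under the Mir219a-2 precursor and with 1008 under the Mir219a-1 precursor, the first never being the smaller in any of the 40 libraries. The Mir219a-2 listing was the larger in 37 of them, so some reads were counted under that precursor alone. What set those reads apart was not tested. The values below are those under the Mir219a-2 precursor.

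Libraries held between 1926108 and 22892729 reads assigned to miRNAs, with medians of 14340558 in 3-month wild-type control mice, 18431486 in 3-month TG mice, 9893109 in 6-month wild-type control mice and 9239179 in 6-month TG mice, so the 6-month libraries were shallower. Detection limits cover counting error only, while the 95% intervals of log2FC include the spread between mice. Nothing in the labels says more about the replicates than that each was 1 mouse. Of the lists of cell type markers, 6 of 6 neuronal miRNAs were present at 10 CPM (reads scaled to a common library size) or more in every library, with a summed level of 193334 to 374477 CPM. The oligodendrocyte list, which is these 4 miRNAs, summed to 775 to 3007 CPM, and no listed marker of any cell type was at 0 in every library.

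miR-219a-2-3p was the most abundant member and miR-219a-5p the scarcest. Levels are CPM after TMM normalization (trimmed mean of M values), where each read stands for 1 mature strand, so no length enters. Whether the libraries captured different strands equally was not tested. Abundance compared between miRNAs is therefore that of reads, not of molecules. miR-219a-2-3p ranked between 67 and 80 among all miRNAs by mean CPM in the 4 groups, miR-338-5p between 107 and 126, miR-338-3p between 130 and 165, and miR-219a-5p between 408 and 471. That order of the 4 members was the same in every group.

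miR-219a-2-3p, the 3p strand of the Mir219a-2 hairpin, measured 1193, 1364, 1468, 1015 and 922 CPM in 3-month wild-type control mice 1 to 5. In 3-month TG mice its lowest, median and highest values were 970, 1335 and 1815 CPM. In 6-month wild-type control mice they were 577, 937 and 1515 CPM, and in 6-month TG mice 668, 904 and 1107 CPM. The 3-month TG mice were therefore the highest group and the 6-month TG mice the lowest, and 8 of the 11 6-month TG mice lay below the lowest 3-month TG mouse. Group means were 1192 ± 229 (SD, n = 5), 1401 ± 278.0 (n = 9), 985 ± 283 (n = 15) and 895 ± 142 CPM (n = 11) in that order. All 5 3-month wild-type control mice lay within the range of the 6-month ones.

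miR-338-3p, the strand from the 3′ arm of the Mir338 hairpin, measured 212, 363, 155, 97.9 and 160 CPM in 3-month wild-type control mice 1 to 5, so that mouse 2 stood above the other 4. Its lowest, median and highest values were 102, 317 and 629 CPM in 3-month TG mice. They were 32.5, 145 and 287 CPM in 6-month wild-type control mice and 52.6, 145 and 231 CPM in 6-month TG mice. Here 6 of the 9 3-month TG mice lay above every 6-month TG mouse, while the other 3 lay within the 6-month range. Means were 198 ± 101 (SD, n = 5), 315 ± 177 (n = 9), 160 ± 67.9 (n = 15) and 146 ± 52.7 CPM (n = 11).

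miR-338-5p, from the 5′ arm of the same hairpin, measured 508, 522, 422, 396 and 457 CPM in 3-month wild-type control mice 1 to 5. Its lowest, median and highest values were 275, 416 and 595 CPM in 3-month TG mice, 165, 388 and 576 CPM in 6-month wild-type control mice, and 163, 338 and 562 CPM in 6-month TG mice. The 4 groups overlapped, with means of 461 ± 54.0 (SD, n = 5), 440 ± 129 (n = 9), 377 ± 109 (n = 15) and 352 ± 102 CPM (n = 11). In 38 of the 40 libraries miR-338-5p was more abundant than miR-338-3p.

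miR-219a-5p, the strand that carries the seed by which miR-219 is known, measured only 3.90, 11.1, 4.95, 4.01 and 3.36 CPM in 3-month wild-type control mice 1 to 5. Its lowest, median and highest values were 1.18, 6.83 and 14.9 CPM in 3-month TG mice, 0.638, 3.38 and 6.40 CPM in 6-month wild-type control mice, and 0, 2.19 and 8.24 CPM in 6-month TG mice. These levels rest on 0 to 443 reads per library, and spread widely within each group, with a coefficient of variation of 55.2% to 81.1%. The value of 0 was in 6-month TG mouse 9, the library of lowest depth, where 3 reads, the limit that a count of 0 allows, correspond to 1.70 CPM. Reads of miR-219a-2-3p outnumbered those of miR-219a-5p in each of the 40 libraries, with a median ratio of 276 between their levels.

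**Figure D1:**
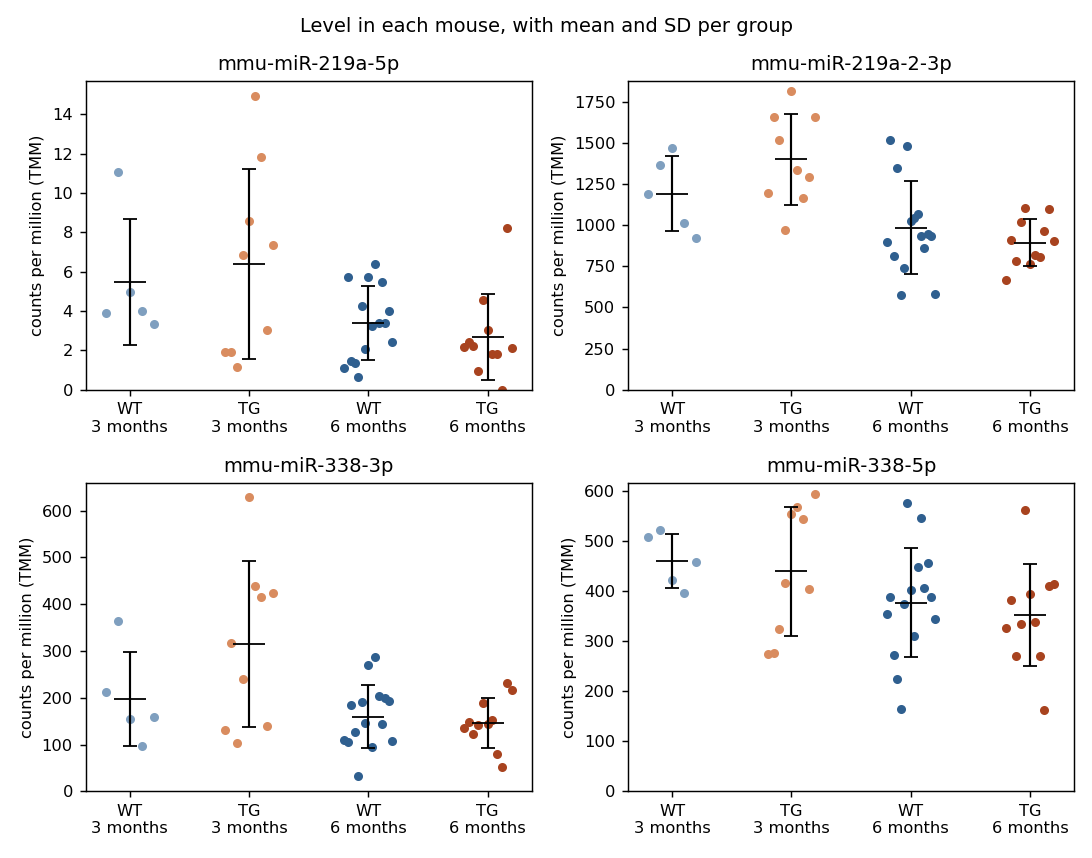
Level of each miRNA (CPM after TMM normalization, linear axis from 0) in every mouse, by genotype and age. Points are mice and bars are the group mean ± SD. For mmu-miR-219a-2-3p, 8 of 11 6-month TG mice lie below the lowest 3-month TG mouse, and mmu-miR-219a-5p stays under 15 CPM in all 40 mice.

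The comparison of 6 with 3 months in TG mice asked whether these miRNAs moved over the period in which the study followed hippocampal function. miR-219a-2-3p and miR-338-3p were lower at 6 months, to 0.675 and 0.494 of their 3-month levels. For miR-219a-2-3p the log2FC was -0.57 (SE 0.15, 95% interval -0.87 to -0.26, adjusted p = 0.0119 with edgeR's quasi-likelihood test over all 629 miRNAs tested), and all 11 6-month TG mice lay below the 3-month mean. For miR-338-3p the log2FC was -1.02 (SE 0.28, interval -1.59 to -0.44, edgeR adjusted p = 0.0157), again with 11 of 11 mice below the 3-month mean. miR-219a-5p had a log2FC of -1.13 (SE 0.43, edgeR adjusted p = 0.0779) and miR-338-5p one of -0.25 (SE 0.17, edgeR adjusted p = 0.318), neither passing the threshold of an adjusted p under 0.05 with a log2FC beyond 0.26. So 2 of 4 members passed, both lower, against 15.7% of all miRNAs tested in this comparison (47 higher and 52 lower). The median log2FC of the 4 was -0.79 and that of all miRNAs tested -0.09. In bulk tissue, fewer oligodendrocytes and less miRNA per oligodendrocyte cannot be told apart.

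The call on miR-219a-2-3p held in each of 14 alternative fits, with log2FC values between -0.69 and -0.49, and that on miR-338-3p in 13 of the 14. With limma on log2(RPM + 1) miR-338-3p had an adjusted p of 0.0760. On the library axis described further on, a summary of the whole miRNA profile, 3-month TG mice 1, 2 and 3 had the lowest scores of their group (-10.4, -12.2 and -17.4), mouse 8 came next (-6.18), and the other 5 lay between 6.37 and 12.1. Without mice 1, 2 and 3, a choice made after seeing the data, all 4 members were called lower, among 315 of the 662 miRNAs tested that were called in either direction, with log2FC values of -1.53 for miR-219a-5p, -0.49 for miR-219a-2-3p, -1.26 for miR-338-3p and -0.44 for miR-338-5p. Without mouse 8 as well they were -1.71, -0.50, -1.45 and -0.50, all called, among 396 of 679 miRNAs. Because miR-219a-5p, miR-338-3p and miR-338-5p follow that axis (r = 0.75 to 0.84), leaving out mice at its low end raises their 3-month means. A larger decrease of these members was thus built into the choice, and these fits are no separate support for it. The same limit applies wherever these TG mice are left out. With a factor estimated from the spike-in oligonucleotides, which moved the median log2FC of all miRNAs from -0.09 to 0.02, the log2FC of miR-219a-5p was -0.36 and that of miR-338-3p was -0.64, the second still called (edgeR adjusted p = 0.0182).

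In wild-type control mice the same comparison of ages gave no call among the members. The log2FC was -0.60 (95% interval -1.32 to 0.13) for miR-219a-5p, -0.23 (-0.65 to 0.19) for miR-219a-2-3p, -0.26 (-0.91 to 0.40) for miR-338-3p and -0.25 (-0.65 to 0.15) for miR-338-5p, with edgeR adjusted p-values of 0.413 to 0.720. All 4 values were below 0 and none had an unadjusted p under 0.05. Only 1 of 660 miRNAs passed here, 0.152%, and DESeq2 called 13 miRNAs and no member. Without 3-month wild-type control mouse 2 the value was 0.05 for miR-338-3p and -0.18 for miR-219a-5p. Without mice 1 and 2, the pair with disagreeing labels, it was 0.23 for miR-338-3p, -0.21 for miR-219a-5p and -0.15 for miR-338-5p.

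Whether the change with age differed between genotypes was tested directly as an interaction. The age change in TG mice minus that in wild-type control mice was -0.54 (95% interval -1.74 to 0.66) for miR-219a-5p, -0.36 (-0.86 to 0.13) for miR-219a-2-3p, -0.77 (-1.66 to 0.11) for miR-338-3p and -0.02 (-0.54 to 0.50) for miR-338-5p on the log2 scale. None passed (edgeR adjusted p = 0.986 to 0.991), and 0% of 699 miRNAs passed in this comparison, with 14 at an unadjusted p under 0.05 and none called by DESeq2 without added factors. Without 3-month wild-type control mice 1 and 2 the values were -0.98 for miR-219a-5p, -1.31 for miR-338-3p and -0.14 for miR-338-5p, and without mouse 2 alone -0.94, -1.08 and -0.05, none of them called. Without 3-month TG mice 1, 2, 3 and 8 they were -1.14, -1.20 and -0.26, again with no call. The decrease seen in TG mice was thus not shown to differ from the change in wild-type control mice.

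Averaged over both genotypes, 3 of 4 members were lower at 6 months, against 23.6% of the 699 miRNAs tested (78 higher and 87 lower). The log2FC was -0.86 for miR-219a-5p (SE 0.29, edgeR adjusted p = 0.0261), -0.40 for miR-219a-2-3p (SE 0.12, adjusted p = 0.0127) and -0.64 for miR-338-3p (SE 0.21, adjusted p = 0.0242). miR-338-5p had a value of -0.25 (SE 0.13, edgeR adjusted p = 0.134). These calls depended on the small 3-month wild-type group. Without its mouse 2 only miR-219a-2-3p was called (log2FC -0.38, edgeR adjusted p = 0.0333), and without mice 1 and 2 no member was. Over all miRNAs 101 of 709 and 121 of 727 were called in these fits. All 4 were called with added factors of unwanted variation in DESeq2 and without TG mice 1, 2 and 3, with or without mouse 8. These settings called many of all miRNAs. The counts were 347 and 352 of 699 with 1 and 2 added factors. They were 305 of 692 without TG mice 1, 2 and 3 and 363 of 694 without mouse 8 as well.

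No member differed between genotypes at either age. At 3 months the log2FC of TG over wild-type control mice was 0.23 (95% interval -0.89 to 1.35) for miR-219a-5p, 0.22 (-0.19 to 0.63) for miR-219a-2-3p, 0.66 (-0.24 to 1.55) for miR-338-3p and -0.08 (-0.55 to 0.40) for miR-338-5p (edgeR adjusted p = 0.998 for each). At 6 months it was -0.31 (-0.97 to 0.35), -0.11 (-0.41 to 0.19), -0.11 (-0.56 to 0.35) and -0.08 (-0.39 to 0.23) in the same order (edgeR adjusted p = 0.992 for each). Over all miRNAs 0% of 695 passed at 3 months and 0% of 612 at 6 months, with 7 and 3 at an unadjusted p under 0.05 and none called by DESeq2 without added factors. Without wild-type control mice 1 and 2 the 3-month values were 0.64 for miR-219a-5p, 1.18 for miR-338-3p and 0.04 for miR-338-5p. Without mouse 2 alone they were 0.68, 1.01 and -0.02, and without TG mice 1, 2, 3 and 8 they were 0.79, 1.07 and 0.16, none of them called. With only 5 wild-type control mice at 3 months, the interval for miR-338-3p still holds a difference of 1.55 on the log2 scale.

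**Figure D2:**
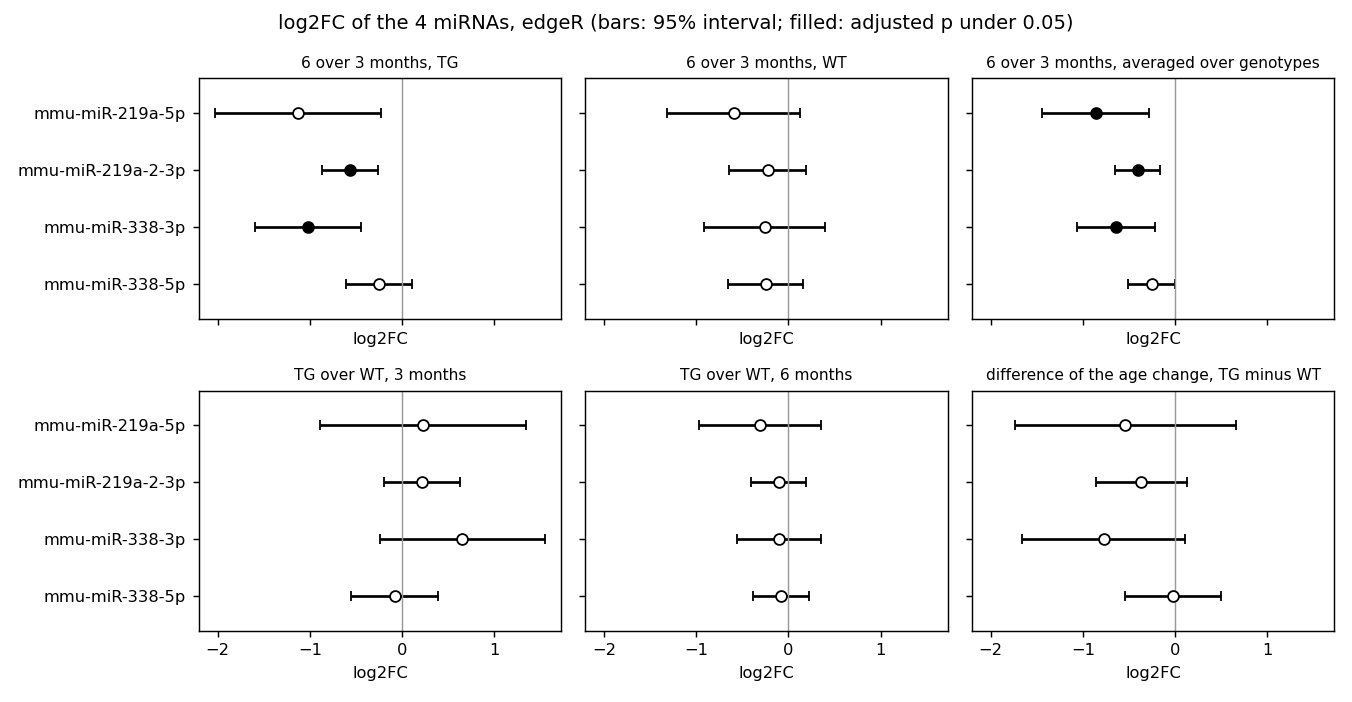
log2FC of each miRNA in 6 comparisons, estimated with edgeR. Bars are 95% intervals and filled points passed the threshold after adjustment over all miRNAs tested. The filled points are mmu-miR-219a-2-3p (-0.57) and mmu-miR-338-3p (-1.02) for age in TG mice and 3 points for age averaged over genotypes, and the intervals for both genotype comparisons all contain 0.

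Both arms of a hairpin are cut from the same precursor, and a ratio between them within a library does not depend on how the library was scaled. The log2 ratio of miR-338-3p to miR-338-5p was -0.66 ± 0.67 (SD, n = 9) in 3-month TG mice and -1.31 ± 0.29 (n = 11) in 6-month TG mice. All 11 6-month mice lay below the 3-month mean. The difference of -0.65 had an exact permutation p of 0.0105 (two-sided), which became 0.169 when adjusted over the 16 ratio tests made, and so did not pass. In wild-type control mice the ratio was -1.35 ± 0.54 (n = 5) at 3 months and -1.33 ± 0.56 (n = 15) at 6 months, with a difference of 0.02. The 3-month mice ranged from -2.01 to -0.52, and the highest was mouse 2, one of the pair with disagreeing labels. The near-equal means thus depended in part on that mouse. Over all 40 mice the level of miR-338-3p was between 0.198 and 1.14 times that of miR-338-5p.

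The ratios across the other pairs gave no difference that passed adjustment. The log2 ratio of miR-219a-2-3p to miR-338-3p, which sets 1 gene against the other, was 2.36 ± 0.87 (SD, n = 9) in 3-month TG mice and 2.70 ± 0.60 (n = 11) in 6-month TG mice, with adjusted permutation p = 0.671. That of miR-219a-5p to miR-338-3p differed by -0.26 between the same groups (adjusted permutation p = 0.778), and that of miR-219a-2-3p to miR-219a-5p by 0.60 (adjusted permutation p = 0.671). The last ratio had an SD of 1.13 over the 40 mice, the widest of the 4 ratios tested, and its lower member was the one with few reads.

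**Figure D3:**
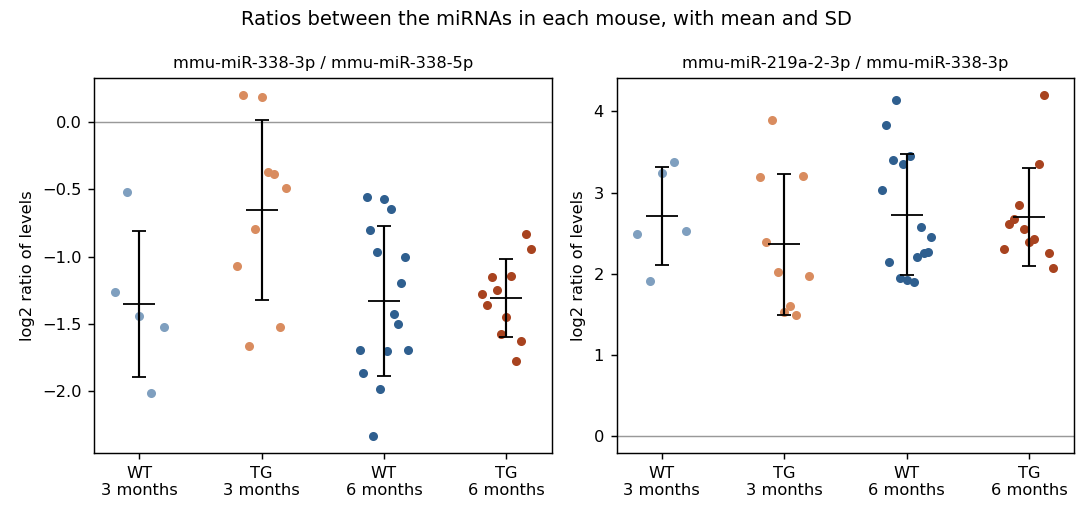
log2 ratio of mmu-miR-338-3p to mmu-miR-338-5p (left) and of mmu-miR-219a-2-3p to mmu-miR-338-3p (right) in every mouse, with the group mean ± SD. On the left the 6-month TG mice average -1.31 and the 3-month TG mice -0.66, while both wild-type groups average near -1.3. The 3-month wild-type control mice there range from -2.01 to -0.52.

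Within groups, 3 of the 4 members rose and fell together from mouse to mouse, and r of miR-219a-2-3p with each of them was lower and did not pass. After removal of group means, Pearson's r over the 40 mice was 0.73 between miR-219a-5p and miR-338-3p (Spearman's rho 0.71), 0.77 between miR-219a-5p and miR-338-5p (rho 0.74) and 0.74 between the 2 arms of Mir338 (rho 0.76). Each of these had a permutation p of 1e-05 for r and for rho, the smallest that 100000 resamples within groups can give, and 2e-05 when adjusted over the 6 pairs. Without the 2 mice farthest from the median, r was 0.66 to 0.67, and it was 0.74 to 0.86 in the 14 3-month mice and 0.71 to 0.76 in the 26 6-month mice. For miR-219a-2-3p, r was 0.14 with miR-219a-5p, 0.32 with miR-338-3p and 0.29 with miR-338-5p (rho 0.16, 0.29 and 0.29), with adjusted permutation p-values of 0.0824 to 0.367 for r and 0.110 to 0.341 for rho. Weak as they were, the relations of miR-219a-2-3p with the Mir338 arms ranked high for this miRNA, since only 4.18% and 5.01% of the 359 other abundant miRNAs had a higher r with it than miR-338-3p and miR-338-5p did. They did not rank high for the arms. Of the 359, 41.5% had a higher r with miR-338-3p, and 47.6% with miR-338-5p, than miR-219a-2-3p did. For the 3 pairs with higher r these shares were 7.80% to 20.9%, taken from either side.

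Much of this covariation was shared with the whole library. The first principal component of the 359 other miRNAs whose mean reached 10 CPM, taken after removal of group means, held 69.8% of their variance and correlated with log2 depth over 40 libraries (r = 0.74, rho 0.67, permutation p = 1e-05 for each, and r = 0.67 without the 2 libraries farthest out). Across mice this library axis had r = 0.79 with miR-219a-5p (rho 0.80), 0.75 with miR-338-3p (rho 0.71) and 0.84 with miR-338-5p (rho 0.82), each with a permutation p of 1e-05, the smallest possible, and 1.3e-05 adjusted over 4 tests. Without the 2 mice at the ends of the axis these r values were 0.74, 0.66 and 0.81. For miR-219a-2-3p r was -0.04 (rho -0.08, adjusted permutation p = 0.822 for r and 0.619 for rho). A share of 98.1% of the other 359 miRNAs had a larger r in size with the axis than miR-219a-2-3p, against 42.9% to 51.5% for the other 3 members. miR-219a-2-3p thus had one of the weakest relations to the axis, and the other members followed it about as closely as the middle of all miRNAs did.

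As a description, with the axis removed by regression the 3 higher correlations were 0.32 to 0.35, and those of miR-219a-2-3p with the Mir338 arms were 0.53 for miR-338-3p and 0.60 for miR-338-5p. Depth also differed with age in TG mice, and so did a separate component of the same 359 miRNAs, taken without removal of group means. On that separate component the lowest, median and highest scores were -14.5, 9.04 and 14.5 in 3-month TG mice and -17.4, -4.65 and 6.54 in 6-month TG mice. They were -0.19, 3.85 and 13.2 in 3-month and -21.4, 2.95 and 9.23 in 6-month wild-type control mice. With 1 factor of unwanted variation taken from the residuals (RUVr) in DESeq2, the age difference in TG mice was -0.99 for miR-338-3p (adjusted p = 2.3e-06) and -0.61 for miR-219a-2-3p (adjusted p = 2.04e-05), all 4 members were called, and so were 302 of the 629 miRNAs tested. The part of depth in these differences was not tested.

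**Figure D4:**
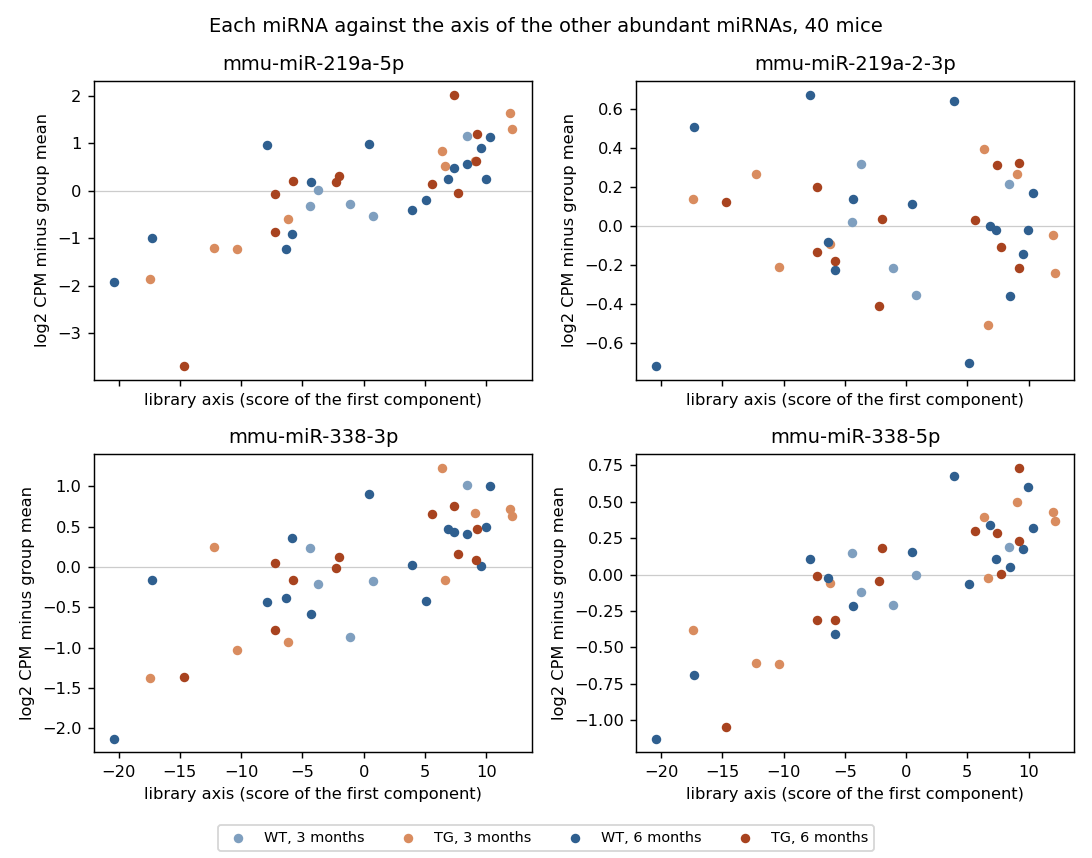
Deviation of each miRNA from its group mean (log2 CPM) against the library axis, the first principal component score of the 359 other abundant miRNAs, in 40 mice coloured by group. The other panels rise from left to right (r = 0.75 to 0.84) and the panel of mmu-miR-219a-2-3p does not (r = -0.04).

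The miRNAs most like each member across mice, by Pearson's r of deviations from group means over 40 mice, are given as a description. For miR-338-3p they were mmu-miR-29b-3p (0.91), mmu-miR-15a-5p (0.91) and mmu-miR-376a-3p (0.90), and for miR-338-5p mmu-miR-26a-5p (0.88), mmu-miR-16-5p (0.87) and mmu-miR-93-5p (0.86). For miR-219a-5p they were mmu-let-7f-2-3p, mmu-miR-136-5p and mmu-miR-106b-5p (0.83 each). These 9 miRNAs had r of 0.74 to 0.99 with the library axis themselves. For miR-219a-2-3p the closest were mmu-miR-1a-3p (0.56), mmu-miR-129-1-3p (0.45) and mmu-miR-21a-5p (0.43). So no other abundant miRNA tracked miR-219a-2-3p closely.

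The second miR-219a gene and the antisense hairpins gave few reads. miR-219a-1-3p, the only strand that names Mir219a-1 alone, had 2990 reads over all libraries against 563588 for miR-219a-2-3p. Its mean level was 5.72 ± 1.27 CPM (SD, n = 5) in 3-month and 8.19 ± 2.82 CPM (n = 15) in 6-month wild-type control mice, and 5.53 ± 2.73 (n = 9) and 7.81 ± 3.35 CPM (n = 11) in TG mice of the same ages. Its log2FC of 6 over 3 months was 0.56 for TG mice, 0.54 for controls and 0.54 averaged over genotypes (SE 0.21, edgeR adjusted p = 0.0575), above 0 where those of the 4 members were below 0 but not past the threshold. The strands of the antisense genes Mir219b, Mir219c and Mir3065 had 0 to 54 reads each over the 40 libraries and were not tested.

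Of 15 other miRNAs linked to the oligodendrocyte lineage, all tested, 1 was lower at 6 months in TG mice, none was higher, and none passed in wild-type control mice. That share, 1 of 15, was below the 15.7% of all miRNAs called in TG mice. The lower one was mmu-miR-23a-3p, which targets the nuclear lamina protein lamin B1 in oligodendrocytes. Its median was 239 CPM (77.0 to 313) in 3-month TG mice and 87.8 CPM (44.1 to 166) in 6-month TG mice, and its log2FC was -0.86 (SE 0.29, edgeR adjusted p = 0.0458). Averaged over genotypes 3 of the 15 were lower and none higher, namely mmu-miR-23a-3p (-0.73), mmu-miR-32-5p (-0.50) and mmu-miR-7a-5p (-0.41), with edgeR adjusted p-values of 0.0148, 0.0446 and 0.0285, where 23.6% of all miRNAs were called. The most abundant of the list, mmu-miR-9-5p, a miRNA of neurons and neural progenitors, had a log2FC of -0.17 in either genotype and did not pass. The list's median log2FC was -0.24 in TG mice and -0.17 in wild-type control mice, where the medians of all miRNAs tested were -0.09 and -0.02. No member of the list passed between genotypes at either age, or in the interaction, and 4 of the 15 also stand on the marker lists of other cell types.

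Some markers of other cell types were also called with age in TG mice, where 15.7% of all miRNAs were. Of 6 neuronal miRNAs 2 were called higher at 6 months, mmu-miR-128-3p and mmu-miR-218-5p, and none lower. The list did not move as a whole, and its median log2FC was 0.22. Mean mmu-miR-128-3p was 123958 CPM in 3-month and 195273 CPM in 6-month TG mice. Means of mmu-miR-124-3p went from 4339 to 2603 CPM and those of mmu-miR-9-5p from 85684 to 72878 CPM, neither of them called. The summed level, of which mmu-miR-128-3p was the largest part, ranged from 193334 to 340518 CPM at 3 months and from 220654 to 369601 CPM at 6 months. Both choroid plexus miRNAs, mmu-miR-204-5p and mmu-miR-211-5p, were called higher, with sums of 308 to 751 CPM and 627 to 1027 CPM. One of 4 blood vessel miRNAs, mmu-miR-126a-3p, was called higher, with sums of 9975 to 16975 CPM and 13368 to 19299 CPM. Of the 3 erythroid miRNAs, 1 was called higher (mmu-miR-451a) and 1 lower (mmu-miR-144-3p), with sums of 468 to 1133 CPM and 657 to 974 CPM. None of the 5 microglial and leukocyte miRNAs was called, with sums of 199 to 379 CPM and 225 to 663 CPM. The oligodendrocyte sum was 1601 to 3007 CPM at 3 months and 1132 to 1861 CPM at 6 months. The part of these markers in the decrease of the members was not tested.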

How the data were processed

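Small RNA libraries were made from 300 ng of CA1 RNA with the NEBNext kit and sequenced by the authors, who trimmed adapters with cutadapt (2.8 in the submitters' processing notes) and counted reads against miRBase with miRDeep2 and bowtie on mm10. The deposited counts are raw reads per mature miRNA and precursor (2128 pairs, 1978 mature miRNAs) beside 52 spike-in entries, left out here except for the spike-in factor. The deposited RPM values are those counts scaled to a common library total, and served in 1 alternative.

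Counts were tested with edgeR 4.0.16 (quasi-likelihood, TMM, a filter on low counts with a minimum of 10, Benjamini-Hochberg over all miRNAs tested) in R 4.3.3, after a test on simulated data. A call needed an adjusted p under 0.05 and a log2FC beyond 0.26. Ratios and correlations used log2 CPM (prior count 2) and permutation tests in scipy 1.17.1. Alternatives included DESeq2 1.42.0, alone and with RUVr factors, and limma 3.58.1. Genomic annotation came from GENCODE on GRCm38, of which mm10 is another name. The members and lists were chosen with earlier results of these data known. The text names the 4 members, other strands of their loci, lineage miRNAs that were called or most abundant, marker miRNAs that were called, and the 3 miRNAs most like each member. Marker names were added after their values were seen.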

Additional observations from a re-analysis of the deposited data

Results flagged for a closer look

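In 3-month wild-type control mouse 2, miR-219a-5p was at 11.1 CPM, where the other 4 mice of the group were at 3.36 to 4.95 CPM. miR-219a-1-3p was at 3.48 CPM in that mouse, with the others at 6.02 to 6.67 CPM, and the log2 ratio of miR-219a-2-3p to miR-219a-5p was 6.92 there, the lowest of the group. Each of these values lay farther from its neighbour than Dixon's 95% limit allows for 5 samples. The 3 came from 18 groups of values examined, 1 in 20 of which chance would mark, and 2 of them share the same reads of miR-219a-5p. All 18 were of 3-month mice. The 6-month groups were larger than the limits used here cover and were not examined. This mouse is one of the pair whose genotype field differs from the title, and the cause was not tested.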

How the results depend on the processing

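Direction and call of each log2FC were the same in 351 of 400 alternative values, 29 of the others changed the call and 20 the sign. For age in TG mice, where edgeR called 2 members, 4 were called with 1 or 2 RUVr factors and without 3-month TG mice 1, 2 and 3, with or without mouse 8 (chosen after seeing the data), and 1 with limma on log2(RPM + 1). For age averaged over genotypes, where 3 were called, 4 were called with 1 or 2 RUVr factors, with the replicate block and without those TG mice, 1 was called with the spike-in factor, none (0) without 3-month wild-type control mice 1 and 2 or with both counted as TG, and 1 to 3 when each 3-month wild-type control mouse was left out in turn. Replicate numbers were not taken to pair the mice, since not every same-numbered pair had a correlation of deviations over 0.1. It was over 0.1 in 7 of 9 pairs for age in TG mice, in 2 of 5 in wild-type control mice, in 2 of 5 between genotypes at 3 months and in 9 of 11 at 6 months (mean r 0.41), and mice correlated best with their own number in 0 of 9, 1 of 5, 1 of 5 and 2 of 11. Whether mice with the same or nearby numbers shared some other structure was not tested. Under a replicate block fit, 2 members were called for age in wild-type control mice, miR-219a-5p (-1.48) and miR-338-5p (-0.68), and in the genotype comparison at 3 months miR-219a-5p reversed to -0.63. Calls over all miRNAs moved further. For age in TG mice 99 became 302 and 312 with 1 and 2 RUVr factors, 219 with the spike-in factor and 315 without TG mice 1, 2 and 3, or 396 without mouse 8 as well. In wild-type control mice 1 became 205 and 219 with RUVr factors and 250 with the replicate block, and averaged over genotypes 165 became 347 and 352 with RUVr factors, 355 with the block, 305 without TG mice 1, 2 and 3, 363 without mouse 8 as well, and 101 without wild-type control mouse 2. With 2 RUVr factors 85 were called between genotypes at 3 months and 5 in the interaction, where edgeR called 0.

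Other reversals concerned values that were not called. For age in wild-type control mice miR-338-3p was 0.23 without mice 1 and 2 or with both counted as TG, and -0.44 to 0.054 with 1 mouse left out. Between genotypes at 3 months miR-219a-5p was -0.11 and -0.10 with 1 and 2 RUVr factors and -0.023 with limma. miR-338-5p was 0.043 there with the spike-in factor, 0.041 without wild-type control mice 1 and 2, 0.10 with both counted as TG and 0.13 without TG mice 1, 2 and 3, 0.16 without mouse 8 as well, and at 6 months it was 0.028 with the spike-in factor. In the interaction miR-338-5p was 0.0099 and 0.0090 with 1 and 2 RUVr factors, 0.00037 with summed precursors, 0.058 with limma, 0.13 with the replicate block and -0.066 to 0.042 with 1 mouse left out. For age in wild-type control mice the log2 ratio of miR-219a-2-3p to miR-338-3p was -0.32 without mice 1 and 2, and -0.18 to 0.18 with 1 mouse left out, and that of miR-338-3p to miR-338-5p was -0.14 to 0.23. All 24 alternative values of the 6 correlations kept their sign and their side of the threshold. The cause of these changes was not tested.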
